A study of Mus musculus with 12 samples.

Results

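In RNA from whole mouse hippocampi, none of 10 genes that earlier work reported as miR-34 targets passed an adjusted p of 0.05 after expression of a miR-34 sponge in neurons, where 0.0640% of all genes tested did. The genes were taken by name, as Sirt1, Bcl2, Met, Axl, Ccnd1, Cdk6, E2f3, Myc, Crhr1 and Syt1, out of 23777 gene symbols in the deposited counts, and they hold 20 of the 32850 RefSeq entries that the authors counted. The nearest to the limit was Ccnd1, which was 0.817 times its control level, followed by E2f3 at 0.664 times, and both were lower in all 3 sponge mice than in any control mouse, as were 5.43% of all genes tested. Axl and Myc were listed at 0 in every mouse and Sirt1 had too few reads for a test. Of the 8 genes that passed among all genes tested, 4 were markers of the choroid plexus, a tissue beside the hippocampus.

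Male C57BL/6 mice received injections of AAV5 into both hippocampi at 10 weeks of age, and the entire hippocampi were taken 10 weeks later. All vectors expressed GFP from the synapsin promoter, which is active in neurons. In the miR-34 experiment, 3 mice that received GFP-miR-34sp, a vector whose transcript carries 8 binding sites for the miR-34 family, were compared with 3 GFP Ctrl mice that received GFP without such sites. In the miR-9 experiment, 3 mice that received GFP-miR-9sp, with sites for miR-9 instead, were compared with 3 other GFP Ctrl mice, and this comparison shows whether a change in a miR-34 target also occurs with another sponge. The labels name the experiment of the GFP Ctrl mice numbered 10, 4 and 8 in the miR-34 experiment, whereas the mice numbered 16, 2 and 8 were assigned to the miR-9 experiment by elimination, as each experiment had 3 controls according to the methods. The labels do not say that any mice of different groups were littermates or handled together, and the miR-9 count columns, unlike those of the miR-34 experiment, are named totRNA.

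The miR-34 family consists of miR-34a, miR-34b and miR-34c, and the genes of the family are activated by p53. A microRNA pairs through its seed, the bases near its 5′ end, with matching sites in the 3′ UTR of a messenger RNA, which lowers the stability or the translation of that RNA. The targets listed here include drivers of the cell cycle, an inhibitor of cell death, a deacetylase, receptors and a synaptic protein, and a sponge is made to keep the microRNA away from such targets.

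The mature miRNA sequences are shown because the sponge and the sites in the targets are defined by the seed, here in capitals (bases 2 to 8). They come from RefSeq (GRCm38.p6), where miR-34a-5p lies at chr4:150068473-150068494, miR-34b-5p at chr9:51103610-51103632 and the copy of miR-9-5p at chr3:88215613-88215635. The mature miR-34c-5p is named only. miR-34a and miR-34b share all bases of the seed with miR-449a and miR-449c, and none of these shares the seed of miR-9.
mmu-miR-34a-5p: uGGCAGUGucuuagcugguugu
mmu-miR-34b-5p: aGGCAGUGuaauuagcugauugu
mmu-miR-449a-5p: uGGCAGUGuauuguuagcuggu
mmu-miR-449c-5p: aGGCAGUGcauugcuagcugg
mmu-miR-9-5p: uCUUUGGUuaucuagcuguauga

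Seed matches were searched on the sense strand of the longest 3′ UTR that GENCODE M1 (mm9) annotates for each gene. For miR-34, an 8mer was CACTGCCA, a 7mer-m8 was CACTGCC without the A, and a 7mer-A1 was ACTGCCA without the C in front, so that the kinds do not overlap. Of the 10 genes, 9 held at least 1 match, with 5 8mers, 6 7mer-m8 and 5 7mer-A1 in all. Of 19915 genes with a 3′ UTR, 19.2% held any match and 4.89% an 8mer, but the median length there was 893 bases. Among genes of like length to each target gene, the share with any match ranged from 7.72% (Myc) to 54.7% (Bcl2). The genes were listed as reported targets, so that their matches may come from that choice. Among the genes that could be tested, Cdk6, E2f3, Crhr1 and Syt1 held an 8mer. Myc held no match in its 466 bases. Syt1 had the most, with 4 matches in 2890 bases, and among 2053 genes with a 3′ UTR of 0.8 to 1.2 times that length 39.7% had any. For E2f3, with 2 matches in 3328 bases, the share among genes of like length was 44.6%, and for Ccnd1, with 1 match in 2676 bases, it was 38.1%. The search is a description of letters in a sequence and does not show binding.

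The sites below are those of the genes whose values differed most and the 8mers of the other genes that could be tested, each with 11 bases on either side and the match in capitals. Ccnd1 (chr7:152115836-152125774, minus strand) carries the kind of match that is generally the weakest for miR-34 and the same kind for miR-9, at chr7:152116639-152116667 and chr7:152116014-152116042. E2f3 (chr13:29998444-30077537, minus strand) carries an 8mer at chr13:29999022-29999051 and a 7mer-m8 at chr13:30001047-30001075. The 8mers of the others lie at chr5:3522982-3523011 on the plus strand (Cdk6), chr11:104036361-104036390 on the plus strand (Crhr1) and chr10:107935136-107935165 on the minus strand (Syt1).
Ccnd1, miR-34 7mer-A1: tacaatgtcagACTGCCAtgttcaagttt
Ccnd1, miR-9 7mer-A1: tggccaaaaggCCAAAGActggtggtggg
E2f3, miR-34 8mer: tcatttgtaaaCACTGCCAgaatattttct
E2f3, miR-34 7mer-m8: taccccacttcCACTGCCcccatcctgcg
Cdk6, miR-34 8mer: tctgctgccgaCACTGCCAacgctcgagac
Crhr1, miR-34 8mer: cagcactgtggCACTGCCActggaaagccc
Syt1, miR-34 8mer: ttctcttgcaaCACTGCCAacgtgggattg

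For miR-9, whose 8mer is ACCAAAGA, 4 of the 10 genes held a match, and 19.2% of all genes with a 3′ UTR did. Among genes of like 3′ UTR length the share ranged from 7.34% (Myc) to 58.6% (Bcl2). For the 4 genes with a match it was 42.5% (Sirt1), 40.3% (Syt1), 37.5% (Ccnd1) and 21.9% (Axl). For the others it was 58.6% (Bcl2), 44.4% (E2f3), 35% (Cdk6), 32.4% (Met), 16.5% (Crhr1) and 7.34% (Myc). Whether 4 of 10 is an excess was not tested. Sirt1 and Syt1 held an 8mer, Axl a 7mer-m8 and Ccnd1 a 7mer-A1. For these 4 genes the miR-9 sponge is therefore not a comparison free of sites, whereas Bcl2, Met, Cdk6, E2f3, Myc and Crhr1 had no miR-9 match in the searched 3′ UTR.

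**Figure D1:**
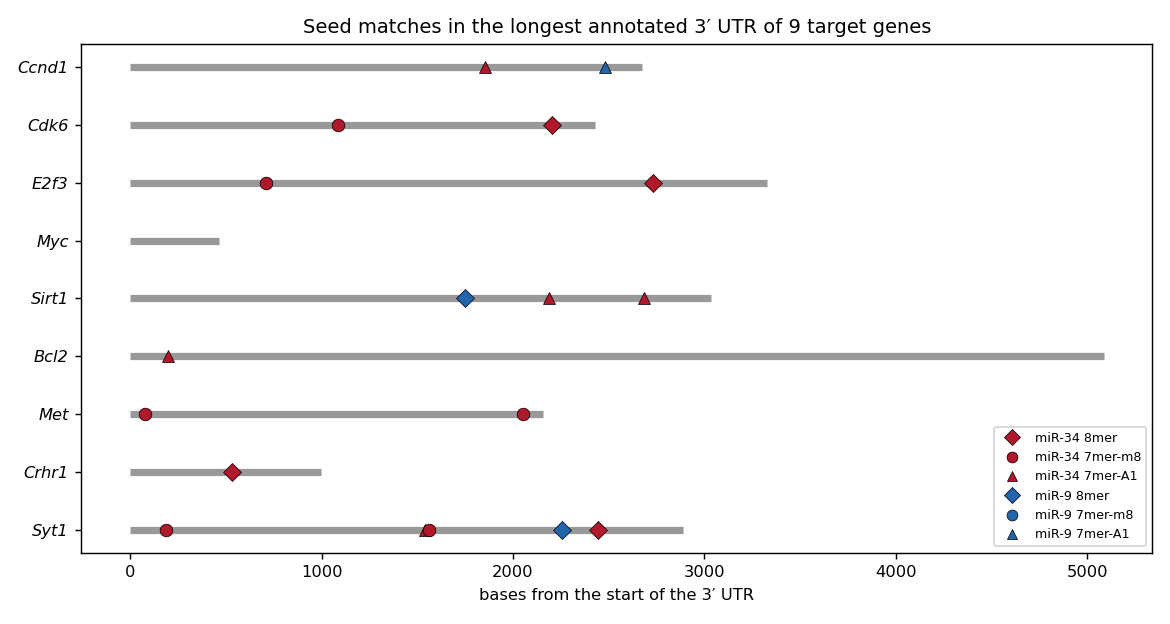
Each grey bar is the longest annotated 3′ UTR of 1 of 9 target genes (Axl is not drawn), plotted from its start, with the x axis in bases; red symbols are miR-34 matches and blue symbols miR-9 matches, with diamonds for 8mers, circles for 7mer-m8 and triangles for 7mer-A1. All genes drawn but Myc carry a red symbol, and Sirt1, Ccnd1 and Syt1 also carry a blue one.

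The libraries held 11029604 to 16934133 counted reads per mouse in the miR-34 experiment and 17279620 to 24428477 in the miR-9 experiment. Between mice of an experiment, the log2 read numbers of all genes correlated at 0.997 or above. Markers of hippocampal neurons were counted in every mouse, with a summed level of 4086 to 5286 CPM (counts scaled to the same library total in every mouse of both experiments), but astrocyte markers were close to that at 3333 to 3819, and the tissue is therefore not neurons alone as the label for cell type says. In such tissue, fewer cells of a type and less RNA per cell cannot be told apart. The GFP Ctrl mice of the miR-34 experiment were all above the miR-34sp mice in choroid plexus markers, though not above all mice of the miR-9 experiment, which is taken up beside Ccnd1.

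The counts are given per RefSeq entry, and how many entries a gene has went along with how many reads it received. Coding genes with 1 entry had a median of 1638 reads over the 12 mice, those with 2 entries 48, and those with 3 or more 23. Gapdh, an abundant glycolytic enzyme with 2 entries, was listed with 1 to 10 reads per mouse, whereas Actb, with 1 entry, had 28977 to 51910. The rule by which reads shared between entries were counted is not given in the sources used here. Therefore, a low or zero value of a target gene with several entries does not show that the gene is silent.

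Among the target genes, the 4 with a single entry were Ccnd1 (NM_007631, 19963 reads over the 12 mice), Crhr1 (NM_007762, 3194), Met (NM_008591, 2269) and Cdk6 (NM_009873, 219). All 3 entries of Axl (NM_001190974, NM_001190975 and NM_009465) and all 4 of Myc (NM_001177352, NM_001177353, NM_001177354 and NM_010849) were listed at 0. Syt1 had its 352 reads on NM_001252341 and none on NM_001252342 or NM_009306. Sirt1 had its 39 reads on NM_019812 and none on NM_001159589. For Bcl2, 99.7% of 5604 reads lay on the long entry NM_009741 and 15 reads on the shorter NM_177410. E2f3 was the exception, with its 344 reads split into 49.7% on NM_001289920 and 50.3% on NM_010093, and the share of NM_001289920 varied from 30.4% to 64.0% between mice.

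**Figure D2:**
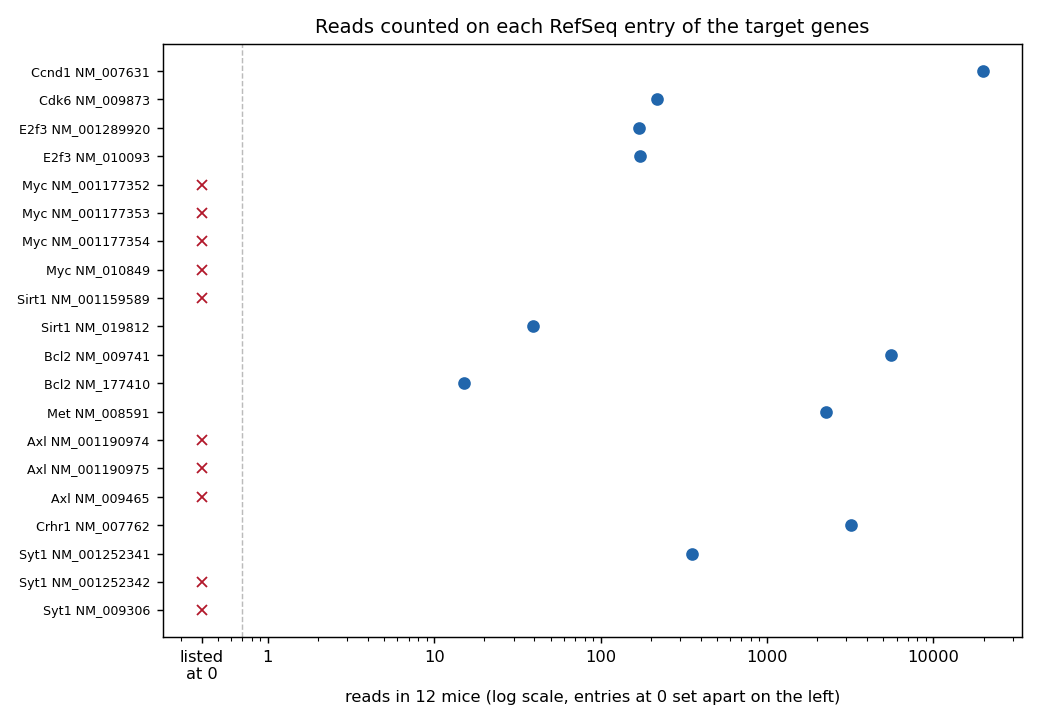
Reads over the 12 mice on each of the 20 RefSeq entries of the target genes, on a logarithmic x axis, with red crosses on the left for the 10 entries listed at 0. The genes with 1 entry hold 219 to 19963 reads, and the entries of Axl and Myc are all at 0.

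Below, a scaled read number is the count of a gene, summed over its entries, after scaling each mouse to the average total of its experiment, so that it can be compared within an experiment only. The cell cycle genes are described first. Ccnd1 encodes cyclin D1, which activates CDK4 and CDK6 to drive cells out of G1. In the miR-34 experiment its scaled read number was 1166, 1191 and 1063 in the sponge mice 13, 18 and 3. In the GFP Ctrl mice 10, 4 and 8 it was 1477, 1346 and 1365. Each sponge mouse thus lay below each GFP Ctrl mouse, with means of 1140 ± 67.9 and 1396 ± 71.0 (SD, n = 3 each). The log2 fold change was -0.30 with a standard error of 0.06 (95% interval -0.42 to -0.17). It did not pass across 12492 genes (adjusted p = 0.166, edgeR quasi-likelihood test), and an exact permutation test of the means gave p = 0.1, the smallest that 3 against 3 mice allow.

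The call of Ccnd1 depended on the tool and the filter. With DESeq2 on the same genes the adjusted p was 0.0150, and with edgeR on every gene with at least 1 read it was 0.00212. Over all 15 alternatives the adjusted p ranged from 0.00212 to 0.999, and it was under 0.05 in these 2. Both settings also called more of all genes than the edgeR test above, with the counts given at the end.

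The choroid plexus, a tissue that lies against the hippocampus, makes transthyretin (Ttr) in large amounts. In the miR-34 experiment Ttr was 102.5, 27.6 and 91.3 CPM in the sponge mice 13, 18 and 3, and 576, 1802 and 2175 in the GFP Ctrl mice 10, 4 and 8. The group with low Ttr was thus also the group with low Ccnd1, whereas within each group the mouse with the least Ttr (18 and 10) had the most Ccnd1. The 14 choroid plexus markers together amounted to 78.7 to 163 CPM after the sponge and 667 to 2455 in the controls, and only Folr1 was at 0 in all mice. Of the 12 markers that were tested, 0 were higher and 4 were lower at an adjusted p under 0.05 (edgeR). Markers of meningeal fibroblasts also did not overlap (67.6 to 74.4 against 77.0 to 147), with none of 9 at 0 in all mice, whereas striatal markers overlapped slightly (114.9 to 131.5 against 131.2 to 198.5), with none of 8 at 0. In a model of all 12 mice with log2 Ttr as a covariate (an alternative chosen after seeing the data), the log2 fold change of Ccnd1 was -0.04 (adjusted p = 0.999, edgeR), against -0.30 (adjusted p = 0.684) in the same model without Ttr. The slope on Ttr in this model rests on the mice within each group, where only the miR-9 groups had Ccnd1 in the order of Ttr. It was carried over a gap in Ttr between the miR-34 groups, so that the model cannot decide what lowered Ccnd1. The 3 miR-34sp mice and their controls do not overlap in Ttr. Choroid plexus content of the samples and the sponge therefore cannot be told apart for Ccnd1.

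**Figure D3:**
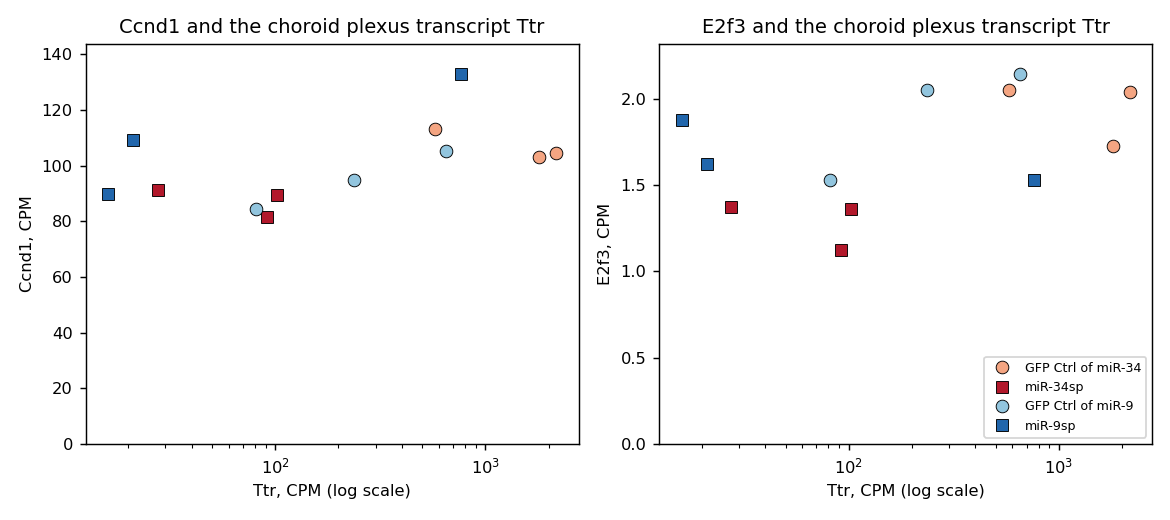
CPM of Ccnd1 (left) and E2f3 (right) on a linear y axis from 0 against CPM of Ttr on a logarithmic x axis, 1 point per mouse, with squares for sponge mice and circles for GFP Ctrl mice of both experiments. The red squares (miR-34sp) lie lower and further left than the orange circles of their controls in both panels.

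In the miR-9 experiment, Ccnd1 was 2681, 2202 and 1809 in the sponge mice 17, 23 and 9. The GFP Ctrl mice 16, 2 and 8 had 1914, 2118 and 1701. The groups overlapped, with means of 2231 ± 436 and 1911 ± 209 (SD, n = 3 each) and a log2 fold change of 0.24 with a standard error of 0.12 (adjusted p = 0.970, edgeR). Ttr was 763, 21.1 and 16.01 CPM in the sponge mice 17, 23 and 9. In the GFP Ctrl mice 16, 2 and 8 it was 236, 650 and 81.4 CPM. Within each group the order of Ttr was thus the order of Ccnd1. Between the groups, sponge mouse 23 had more Ccnd1 than any control mouse and less Ttr than each of them. The cause was not tested. The difference between the effects of the sponges was -0.54 on the log2 scale, with a standard error of 0.15 and a 95% interval of -0.87 to -0.22. Across 12832 genes it did not pass (adjusted p = 0.698, edgeR), and with Ttr as a covariate it was -0.39.

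E2f3 encodes a transcription factor that turns on genes for DNA replication. Its scaled read number in the miR-34 experiment was 17.7, 17.9 and 14.7 in the sponge mice 13, 18 and 3, and 26.8, 22.5 and 26.6 in the GFP Ctrl mice 10, 4 and 8. The groups did not overlap. These values rest on 125 reads in all. The means were 16.8 ± 1.82 and 25.3 ± 2.43 (SD, n = 3 each), and the log2 fold change was -0.59 with a standard error of 0.23 (95% interval -1.11 to -0.08). It did not pass (adjusted p = 0.709, edgeR), and the exact permutation p was again at its smallest possible value, 0.1.

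Both entries of E2f3 had lower means after miR-34sp, at 0.489 times (NM_001289920) and 0.848 times (NM_010093) the control. They differed in whether the groups overlapped, and a difference between the entries was not tested. NM_001289920 had 7, 7 and 6 reads in the sponge mice and 11, 11 and 14 in the controls, which do not overlap on the scaled read number either, and it lay under the filter of the test. NM_010093 had 16, 9 and 9 reads against 17, 8 and 10, with overlapping groups and a log2 fold change of -0.24 with a standard error of 0.33 (adjusted p = 0.946, edgeR). The 8mer lies in the 3′ UTR of the single coding transcript that the annotation gives a 3′ UTR, so that these entries could not be compared for sites. In the miR-34 experiment E2f3, too, was lower in the group with less Ttr. Within each group the mouse with the least Ttr had the most E2f3, but only by a small margin. The scaled values were 17.94 against 17.74 in the sponge mice 18 and 13, and 26.78 against 26.63 in the controls 10 and 8. The covariate model gave a log2 fold change of -0.63. As the groups do not overlap in Ttr, choroid plexus content and the sponge cannot be told apart for E2f3 either. After miR-9sp the E2f3 groups overlapped (33.8 ± 3.63 against 38.4 ± 6.70, SD, n = 3 each), with a log2 fold change of -0.17 and a standard error of 0.20. The difference between the sponges was -0.43 with a 95% interval of -1.04 to 0.19 (adjusted p = 0.855, edgeR).

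Cdk6, the kinase that cyclin D1 activates, was barely counted, with 7 to 18 reads per mouse in the miR-34 experiment. Its scaled read number was 10.8, 13.5 and 16.7 in the sponge mice and 17.2, 10.7 and 7.77 in the controls, and the groups overlapped throughout. The log2 fold change was 0.14 with a 95% interval of -0.63 to 0.92, so that neither a rise nor a fall of considerable size was detectable at this depth. After miR-9sp the log2 fold change was 0.31, with an interval of -0.24 to 0.86. Myc, the oncogenic transcription factor that completes the group, was listed at 0 in all 12 mice and no value can be given for either sponge.

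Bcl2 blocks the release of factors from mitochondria that trigger cell death. In the miR-34 experiment it was 339, 351 and 290 in the sponge mice, with 324, 315 and 381 in the GFP Ctrl mice. The groups overlapped, and the log2 fold change was -0.06 with a 95% interval of -0.28 to 0.15 (adjusted p = 0.954, edgeR). With miR-9sp it was 636, 525 and 562 against 635, 579 and 657, with a log2 fold change of -0.10 and an interval of -0.26 to 0.07. For this gene the counts were high enough to limit a change of its RNA in the whole hippocampus after miR-34sp to the stated interval. A change in the neurons that express the sponge is not limited by it.

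Sirt1, a deacetylase that acts on p53 and on metabolic regulators, was counted with 3, 1 and 2 reads in the miR-34sp mice and with 5, 0 and 0 in their controls. With 0 reads in 2 of the controls, neither direction nor size of a difference was detectable at this depth. Among the mice of the miR-9 experiment it had 5 reads in each sponge mouse and 6, 4 and 3 in the controls, and although the scaled values did not overlap (5.14, 5.83 and 5.26 against 4.95, 3.76 and 3.18), they lie near 3 reads, the smallest signal taken as detectable, and below the filter of the test.

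Met, the receptor for hepatocyte growth factor, was 137, 163 and 139 in the miR-34sp mice and 169, 108 and 120 in the controls. The control mouse 10 was above all sponge mice, and the others below. The log2 fold change was 0.12 with a 95% interval of -0.23 to 0.47 (adjusted p = 0.943, edgeR). It was -0.11 with an interval of -0.34 to 0.12 in the miR-9 experiment. Axl, a receptor for the ligand Gas6, was listed at 0 on all its entries in all mice.

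Crhr1 is the receptor for corticotropin-releasing hormone, through which stress reaches hippocampal neurons. It was 167, 137 and 173 in the miR-34sp mice and 139.7, 173 and 166 in the controls. Of the 7 target genes tested it had the value closest to no change, a log2 fold change of 0.0020 with a 95% interval of -0.26 to 0.27. Its 8mer lies in 1 of the 3 annotated coding transcripts with a 3′ UTR, and which of them was counted is not known. In the miR-9 experiment the log2 fold change was 0.07, with an interval of -0.17 to 0.31. Between the experiments Crhr1 did differ in level, from 10.5 to 13.3 CPM in the 6 mice of the miR-34 experiment and from 15.2 to 20.6 in the 6 mice of the miR-9 experiment. All mice of the latter were higher, and the experiment, its libraries and its mice cannot be told apart in this respect. The share of all genes that separate in this way was not determined, so that the separation cannot be called particular to Crhr1.

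Syt1, the calcium sensor of synaptic vesicle release, was counted with 15 to 27 reads per mouse in the miR-34 experiment. Its scaled read number was 16.97, 30.3 and 18.6 in the sponge mice and 18.2, 21.3 and 16.6 in the controls. Only mouse 18 stood higher. The log2 fold change was 0.19 with a 95% interval of -0.43 to 0.82, and without mouse 18 it was -0.08. After miR-9sp it was 0.16 with an interval of -0.21 to 0.53. The gene with the most miR-34 matches was thus measured with a wide interval.

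**Figure D4:**
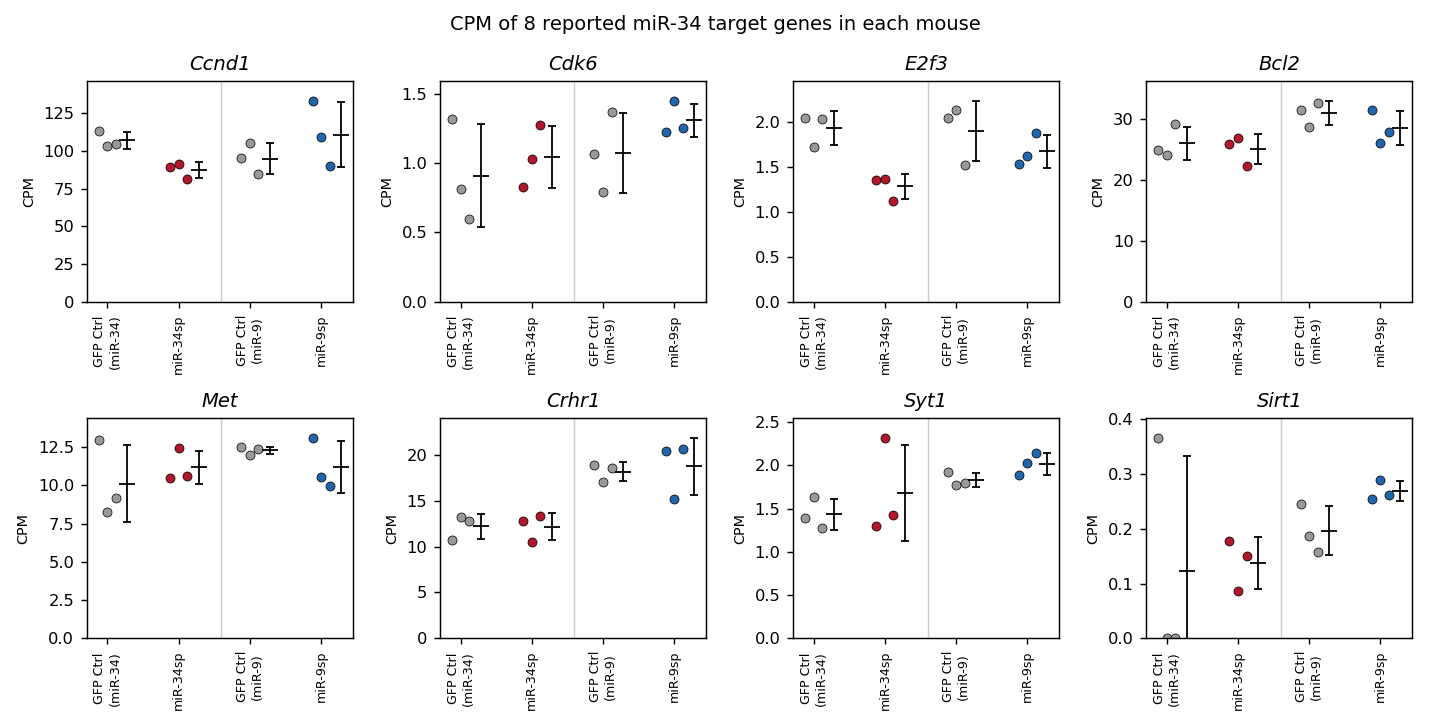
CPM, on a linear y axis from 0, of the 8 target genes with reads, 1 point per mouse in the 4 groups, with the mean and SD of the 3 mice beside the points; grey points are GFP Ctrl mice. The miR-34sp points lie below their controls for Ccnd1 and E2f3 and overlap them for the other 6 genes.

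Considered as a list, 7 of the 10 target genes passed the filter on low values. Of these, 0 were called after miR-34sp at an adjusted p under 0.05, against 0.0640% of 12492 genes tested. Those were 8 genes, all lower, of which 4 were choroid plexus markers. At an unadjusted p under 0.05, edgeR gave 0 higher and 2 lower target genes, against 2.71% and 3.72% of all genes. Groups that did not overlap were found for 2 of the 7, both lower, which 5.43% of all genes showed, and 6.20% had all sponge mice higher. The log2 fold change was above 0 in 4 of the 7 and in 49.7% of all genes, with a median of 0.0020, and the median of all genes tested was -0.0007. After miR-9sp, 0 of the 7 were called, as were 0 of 13045 genes (0%), and at an unadjusted p 0 of the 7 and 4.73% of all genes were below 0.05. None of the 7 had groups that did not overlap, against 3.11% of all genes with all sponge mice higher and 7.86% with all lower. The median of the 7 was 0.07 and 4 of them were above 0. Per RefSeq entry, 0 entries of the target genes were called after either sponge, against 0.0313% of 12787 entries after miR-34sp and 0% of 13439 after miR-9sp. For the difference between the sponges, 0 of the 7 and 0 of 12832 genes (0%) passed in edgeR, with 1 target gene, Ccnd1, and 6.11% of all genes at an unadjusted p under 0.05. DESeq2 called 1 target gene after miR-34sp (Ccnd1), 0 after miR-9sp and 0 for the difference. The 1 call stands beside more calls among the same 12492 genes than the 8 of edgeR. DESeq2 also called more of all genes in the other comparisons, and the counts are given below with the other alternatives.

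**Figure D5:**
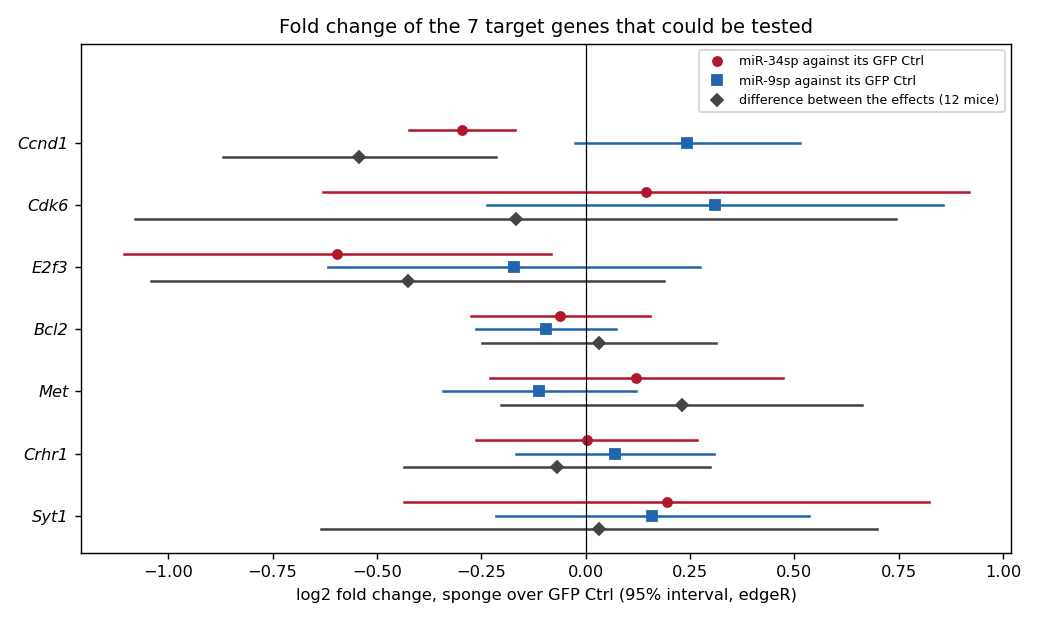
Log2 fold change with its 95% interval for the 7 target genes that were tested, after miR-34sp (red circles) and after miR-9sp (blue squares), and the difference between these effects (grey diamonds). The red intervals of Ccnd1 (-0.42 to -0.17) and E2f3 (-1.11 to -0.08) lie below 0 before adjustment and all other red and blue intervals include 0.

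Levels of different genes were compared as CPM divided by the length in kilobases of the longest counted entry, averaged over the group means. Ccnd1 was the highest at 26.3, followed by Crhr1 at 6.31, Bcl2 at 3.83 and Met at 1.68, whose group ranges did not overlap within either experiment. Cdk6 at 0.439, Syt1 at 0.361 and E2f3 at 0.334 followed, and the ranges of these neighbours overlapped in both GFP Ctrl groups. After miR-9sp the ranges of Cdk6, Syt1 and E2f3 were separate, in that order, and after miR-34sp those of Syt1 and E2f3 were separate while those of Cdk6 and Syt1 overlapped. Sirt1 was lowest of those with reads, at 0.0464. The positions of Syt1, E2f3, Sirt1 and Bcl2 hold for the reads that were counted on their several entries only. The same order was obtained with the length of the entry with the most reads.

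The pathways of the target genes were then examined through lists that leave out the 10 genes themselves. No gene of these lists passed an adjusted p of 0.05 in edgeR in either experiment. As the miR-34 groups do not overlap in choroid plexus markers, tissue content and the sponge cannot be told apart for these genes either. Among 34 further reported miR-34 targets, 21 were tested, 12 of them had a log2 fold change above 0 after miR-34sp, the median was 0.01, and none reached an unadjusted p of 0.05. Notch2, a receptor of the Notch pathway, had -0.18 (adjusted p = 0.797, edgeR) and Hdac1, a histone deacetylase, 0.12 (adjusted p = 0.798, edgeR).

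Of the G1 to S cell cycle genes, 14 of 26 were tested, 7 were above 0 and the median was -0.0004. Ccnd2, the cyclin most like cyclin D1, had -0.12 with a standard error of 0.06, and Rbl1, a relative of the retinoblastoma protein, had 0.41 with a standard error of 0.21. Of the p53 pathway 10 of 14 were tested, with a median of 0.01. Perp, a membrane protein induced by p53, had -0.76 with a standard error of 0.20 (adjusted p = 0.430, edgeR), the lowest value of these lists. Zmat3 had 0.10. After miR-9sp Perp had 0.04 and Zmat3 0.05. In the BCL2 family 10 of 15 were tested, with a median of 0.0011, and Bok and Bbc3, which promote cell death, had -0.14 and 0.18.

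Around the receptors, Gas6, the ligand of Axl, had -0.17 with a standard error of 0.05 (adjusted p = 0.551, edgeR). Pros1, another ligand of that receptor family, had -0.20 with a standard error of 0.10. Both were among 4 tested genes of 7 with a median of -0.08. After miR-9sp Gas6 had 0.0002 and Pros1 -0.01. The ligand of Crhr1, Crh, had -0.32 with a standard error of 0.21 and its binding protein Crhbp 0.09. They were the only genes of the 6 in the list of the corticotropin-releasing hormone system that were tested. Among 11 sirtuins and partners of Sirt1, 6 were tested, with a median of 0.0037, and Foxo3 and Sirt5 had -0.04 and 0.07. Of 19 synaptotagmins and SNARE proteins 17 were tested, with a median of -0.0041. Syt16 had 0.11 after miR-34sp and -0.13 after miR-9sp, and Cplx1, a regulator of vesicle fusion, -0.07 and 0.08.

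After miR-9sp the median log2 fold change was -0.02 for the 22 further miR-34 targets that were tested, -0.0070 for 15 cell cycle genes and 0.0032 for 11 genes of the p53 pathway. It was -0.08 for 10 genes of the BCL2 family, of which Bok had 0.38 with a standard error of 0.15 (adjusted p = 0.970, edgeR). In the same family Hrk, Bid and Pmaip1, chosen after their values were seen, had -0.36, -0.20 and -0.38. Hrk had the smallest unadjusted p of all genes tested after miR-9sp (9.3e-05), but its adjusted p in edgeR was 0.970 as well. The remaining lists had medians between -0.09 (2 genes of the Crhr1 list) and 0.03 (17 synaptotagmins and SNARE proteins), and the median of all genes was -0.0006.

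The genes whose log2 CPM followed a target gene most closely over the 12 mice, after centring in each experiment, were sought among 12389 genes for the 3 target genes with the most reads. For Ccnd1 they were Mmp15, Usp20 and Calr, with a Pearson r of 0.913, 0.910 and 0.903. For Bcl2 they were Adrb3 (0.938), Camk2d (0.925) and Cit (0.902), and for Crhr1 they were Dsn1 (0.919), 1700029J07Rik (0.912) and Hip1r (0.906). The points share libraries, depth and the sponge groups, and the genes were picked as the highest of many, so that these values are a description.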

How the data were processed

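RNA-seq of 12 hippocampal samples was analysed. The deposited files hold whole-number, unscaled counts of reads on each RefSeq entry, and beside them the authors deposited the entry's length in bases (another kind of value). According to the methods, single reads of 50 bases were aligned to mm9. The submitters' processing notes name STAR and mm10 instead. No coordinates were taken from the counts. Of 32850 entries, 98.7% were joined to a symbol through RefSeq and summed by symbol. Genes whose scaled read number averaged over 10 across the mice of a comparison were tested with the quasi-likelihood test of edgeR 4.0.16 (TMM, Benjamini-Hochberg over all genes tested, limit 0.05) in R 4.3.3. This replaced the unpaired test of the methods. The difference between sponges was a contrast over 12 mice. DESeq2 1.42.0, limma 3.58.1, other size factors and filters, coding entries only and leaving out each mouse were alternatives. The limit of 3 reads covers counting error only. The 95% intervals were built from the log2 fold change and the F statistic of the edgeR fit, so that they are approximate and can differ slightly from the p-value. They and the p-values rest on the spread between the mice sequenced, with variance estimates moderated across genes. Site positions of Axl are not reported here. The genes and lists were chosen with earlier results of these data known. The genes named are the 10 targets, the 2 genes per pathway list with the smallest p after miR-34sp, any gene of those lists that passed, Ttr of the marker lists, and the 3 genes most like each of the 3 targets with the most reads. Folr1, Gapdh, Actb, Hrk, Bid and Pmaip1 were named outside this rule, after their values were seen.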

Additional observations from a re-analysis of the deposited data

How the results depend on the processing

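For the target genes, 343 of 379 values under the alternatives kept their direction and their side of the limit. After miR-34sp, DESeq2 and the filter of at least 1 read each called 1 target gene, Ccnd1, per gene and per entry, where edgeR called 0. Both also called more of all genes and entries, as counted below. The direction of Crhr1 after miR-34sp turned with DESeq2 (-0.0022) and with limma (-0.0080), and with Ttr as a covariate those of Cdk6 (-0.23) and Syt1 (-0.021 after miR-34sp, -0.087 for the difference) turned. The cause was not tested.

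Leaving out each mouse gave, after miR-34sp, -0.11 to 0.026 for Bcl2 (up to 0.027 for its entry NM_009741), -0.33 to -0.24 for Ccnd1, -0.085 to 0.54 for Cdk6, -0.089 to 0.088 for Crhr1, -0.67 to -0.50 for E2f3, -0.00061 to 0.35 for Met, -0.08 to 0.36 for Syt1 and -0.41 to 0.033 for the E2f3 entry NM_010093. After miR-9sp it gave -0.0028 to 0.19 for Crhr1 and -0.37 to 0.16 for the E2f3 entry NM_001289920. For the difference it gave -0.02 to 0.12 for Bcl2, -0.40 to 0.23 for Cdk6, -0.19 to 0.016 for Crhr1 and -0.24 to 0.20 for Syt1.

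Over all genes, the count called after miR-34sp was 8 of 12492 tested. It was 36 with DESeq2 on the same genes and 81 with every gene of at least 1 read, where more genes were tested. Total counts, RLE size factors and entries as deposited each gave 4. The limit of 100, 1 model of 12 mice and Ttr as a covariate each gave 0. Without each mouse it was 0 to 57, the 57 without the GFP Ctrl mouse 10. Per entry it was 4, with 37 (DESeq2), 140 (at least 1 read) and 0 to 60 (without each mouse). After miR-9sp it was 0, with 2 in DESeq2 and at the limit of 1 read, per gene and per entry, and 0 to 1 without each mouse. For the difference it was 0, with 5 in DESeq2, 4 at the limit of 1 read and 0 to 1 without each mouse.

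No paired analysis was possible because the mouse numbers shared between groups name different mice and the groups compared share fewer than 2 numbers.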
